A study of Mus musculus with 12 samples.

Results

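Corpus callosum, the large white matter tract between the hemispheres, was profiled by RNA sequencing in mice, and the results below concern 9 genes of lipoprotein assembly and cholesterol efflux. The genes were chosen by function, by symbol: the apolipoproteins Apoe, Apoc1 and Clu, the cholesterol exporters Abca1 and Abcg1, the phospholipid transfer protein Pltp, the liver X receptors Nr1h2 and Nr1h3, and the ubiquitin ligase Mylip. They are 9 of the 15584 genes in the deposited table, and all 9 were among the 13759 genes tested. The choice was made with earlier results of these data known. The 12 libraries form 4 groups of 3. The AHR CKO CPZ group comes from mice deficient for the aryl hydrocarbon receptor (AHR) in microglia and given cuprizone (CPZ), a copper chelator that kills oligodendrocytes and strips myelin. AHR CKO Ctrl has the same genotype with the treatment labelled Ctrl, WT CPZ is wild type with cuprizone, and WT Ctrl is wild type labelled Ctrl. The Cre driver, the age of the mice, and the dose and length of the diet could not be learned from the sources used, nor is it said there whether the 3 replicates of a group are separate animals. P-values therefore measure the spread between these libraries, which may be technical.

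The brain makes its own cholesterol, since plasma lipoproteins do not cross the blood-brain barrier, and much of it lies in myelin. When myelin is broken down, phagocytes that take up the debris must dispose of its sterol: ABC transporters pass cholesterol to lipid-poor apolipoprotein particles, which other cells take up through lipoprotein receptors. Oxysterols made from surplus cholesterol activate the liver X receptors, which form heterodimers with retinoid X receptors on direct repeats in DNA and raise Abca1, Abcg1, Apoe, Apoc1, Pltp and Mylip in several cell types.

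The promoters of 3 genes that rose together under cuprizone are printed here because the liver X receptors are known to act on each of these genes. Each is a RefSeq window on GRCm38.p6 from 250 bases before to 50 bases after a transcript start, written 5′ to 3′ on the gene's strand. The windows lie at chr4:53159846-53160145 (minus strand) for Abca1, chr7:19699139-19699438 (minus strand) for Apoe and chr13:45389492-45389791 (plus strand) for Mylip. Capitals mark TATAAA, the core of the TATA box.
Abca1: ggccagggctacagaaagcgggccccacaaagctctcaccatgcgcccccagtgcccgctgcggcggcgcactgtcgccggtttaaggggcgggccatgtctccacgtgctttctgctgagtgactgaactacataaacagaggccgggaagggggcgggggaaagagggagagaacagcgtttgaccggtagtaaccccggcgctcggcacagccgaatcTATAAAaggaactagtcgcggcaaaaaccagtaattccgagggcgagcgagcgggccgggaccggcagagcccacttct
Apoe: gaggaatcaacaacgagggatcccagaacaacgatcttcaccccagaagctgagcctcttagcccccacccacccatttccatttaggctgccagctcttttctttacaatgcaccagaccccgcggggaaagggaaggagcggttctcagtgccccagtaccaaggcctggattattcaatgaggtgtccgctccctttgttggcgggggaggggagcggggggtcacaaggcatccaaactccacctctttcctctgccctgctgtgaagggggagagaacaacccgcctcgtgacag
Mylip: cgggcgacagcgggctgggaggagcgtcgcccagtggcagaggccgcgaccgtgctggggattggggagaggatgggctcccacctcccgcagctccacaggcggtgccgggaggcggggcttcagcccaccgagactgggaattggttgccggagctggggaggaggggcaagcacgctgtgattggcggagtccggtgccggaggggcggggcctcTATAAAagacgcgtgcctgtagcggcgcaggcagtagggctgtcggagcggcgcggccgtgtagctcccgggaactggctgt
Their GC content was 62.7% for Abca1, 57.7% for Apoe and 71.0% for Mylip. The symbols of 6 of the 9 genes (Abca1, Apoe, Mylip, Nr1h2, Nr1h3 and Pltp) matched 9 windows. The half-site of nuclear receptors, AGGTCA, searched on both strands, stood in 5340 of all 32851 windows (16.3%) and in none of these 9. That says only that these exact letters are not in these windows, and sites that differ from them in a base would not have been found. The letters TATAAA on the gene's strand stood in 2733 windows (8.32%), among them those of Abca1, 29 to 24 bases before the start, and of Mylip, 32 to 27 bases before it. In the Pltp window they stood 36 to 41 bases after the start. TATAAA also stood in 1 of the 3 Apoe windows, not the one printed, 96 to 91 bases before that window's transcript start. A match describes letters in a window and is not a site of binding.

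Ahr did not separate the genotypes in whole tissue: it ran from 1.48 to 2.57 FPKM in AHR CKO CPZ libraries, 1.41 to 2.07 FPKM in AHR CKO Ctrl, 1.73 to 2.01 FPKM in WT CPZ and 1.48 to 2.22 FPKM in WT Ctrl. FPKM is a fragment count scaled to transcript length and library size. The microglial receptor gene Cx3cr1 set 3 AHR CKO libraries apart from their labels' group: it was 1.16 FPKM in AHR CKO CPZ replicate 1, and 1.05 and 0.801 FPKM in AHR CKO Ctrl replicates 1 and 3. The other AHR CKO libraries had 22.7 and 29.6 FPKM under CPZ and 9.60 FPKM in Ctrl replicate 2, against 49.4 to 69.4 FPKM in WT CPZ and 22.6 to 24.9 FPKM in WT Ctrl. The calls that involve AHR CKO were therefore also made without these 3 libraries, and those values follow the results they belong to. Total FPKM per library was between 447156 and 519470. The number of fragments was put at 11400000 to 14900000 per library from low values within a preset range. That range bounds the result whatever the true depth was, so these numbers are an assumption and not a measurement. If that depth held, the least abundant of the 9 genes, Nr1h3, would rest on about 35 to 74 fragments per library, Apoc1 on 8 to 611, and Apoe on 32600 to 266000.

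Markers of cell types differed between the groups, and in bulk tissue fewer cells of a type and less RNA per cell cannot be told apart. The summed level of 6 microglial markers was 220 to 407 FPKM in AHR CKO CPZ, 142 to 155 in AHR CKO Ctrl, 419 to 627 in WT CPZ and 188 to 194 in WT Ctrl. The 6 astrocyte markers summed to 1244 to 2072 FPKM in AHR CKO CPZ, 660 to 799 in AHR CKO Ctrl, 1806 to 2297 in WT CPZ and 821 to 958 in WT Ctrl. Oligodendrocyte markers, which define the labelled white matter, were abundant everywhere and lower with cuprizone: 3934 to 4841 FPKM in AHR CKO CPZ, against 8923 to 9518 in AHR CKO Ctrl, and 2983 to 3577 in WT CPZ, against 9253 to 16783 in WT Ctrl. Choroid plexus markers varied within every group, from 1009 to 3737 FPKM in AHR CKO CPZ, 415 to 3583 in AHR CKO Ctrl, 57.7 to 2989 in WT CPZ and 43.3 to 155 in WT Ctrl. Striatal neuron markers summed to 568 to 1126 FPKM in AHR CKO CPZ, 885 to 1369 in AHR CKO Ctrl, 305 to 592 in WT CPZ and 448 to 1955 in WT Ctrl. General neuronal markers stood between 1494 and 2510 FPKM, and no listed marker of any of the cell types was at 0 in any library. The part of these cell types in the results below was not tested.

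**Figure D1:**
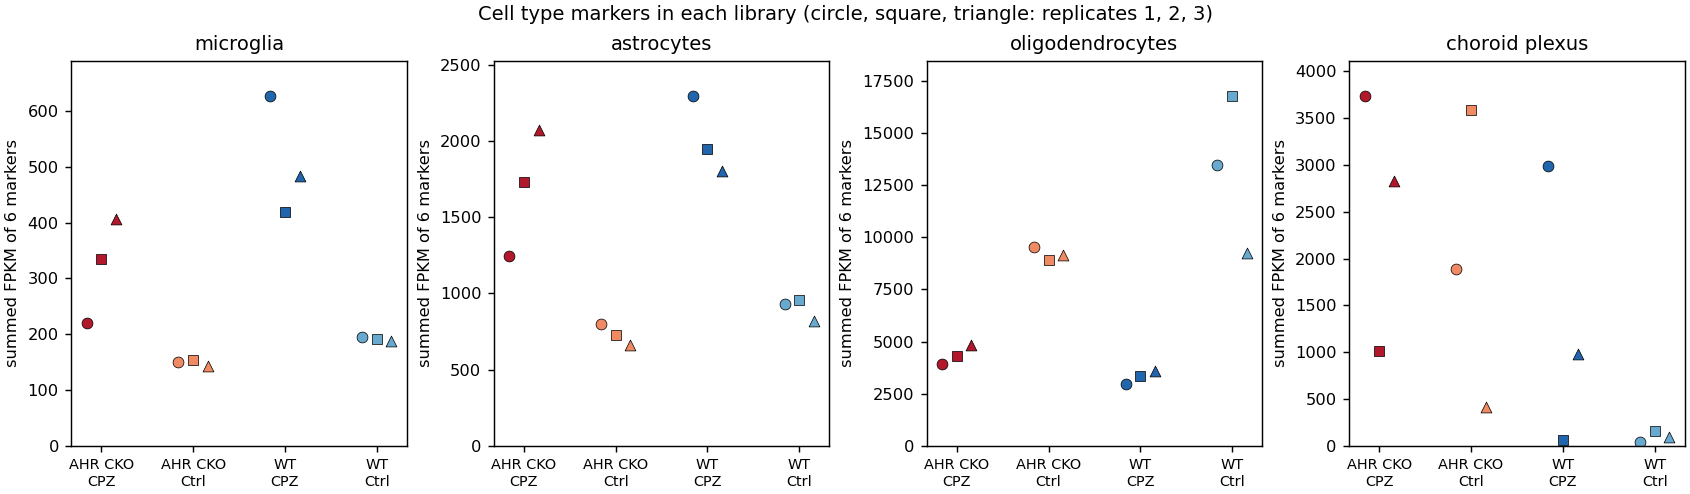
Summed FPKM of 6 markers each for microglia, astrocytes, oligodendrocytes and choroid plexus (y axis, linear) in the 3 libraries of each group (x axis), with a symbol for each replicate number. Microglial and astrocyte sums are higher and oligodendrocyte sums lower in the CPZ libraries, AHR CKO CPZ replicate 1 is the lowest CPZ library for microglia (220 FPKM) and astrocytes (1244 FPKM), and choroid plexus sums spread widely.

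Apolipoproteins and a cholesterol exporter rose together with cuprizone, in both genotypes. Apoe, Apoc1, Clu, Abca1 and Mylip passed the test as higher with CPZ than with Ctrl in AHR CKO tissue, and the same 5 did so in WT tissue (limma on log2(FPKM + 1), adjusted p under 0.05 by the Benjamini-Hochberg method over all genes tested). None of the 9 passed as lower, and Abcg1, Nr1h2, Nr1h3 and Pltp did not pass in either genotype. The 5 of 9 compare with 7.22% of all tested genes called higher and 2.98% called lower in AHR CKO, and 9.08% called higher and 7.81% lower in WT. The CPZ and Ctrl libraries did not overlap for 7 of the 9 genes in AHR CKO, against 28.9% of all tested genes, and for 5 of the 9 in WT, against 34.7%. Over the 9 genes the median log2 change was 0.73 in AHR CKO, where that of all tested genes was -0.01, and 0.63 in WT, where that of all tested genes was -0.04. Since the 9 genes were chosen with earlier results of these data known, these shares and medians are a description and not a test of the set.

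**Figure D2:**
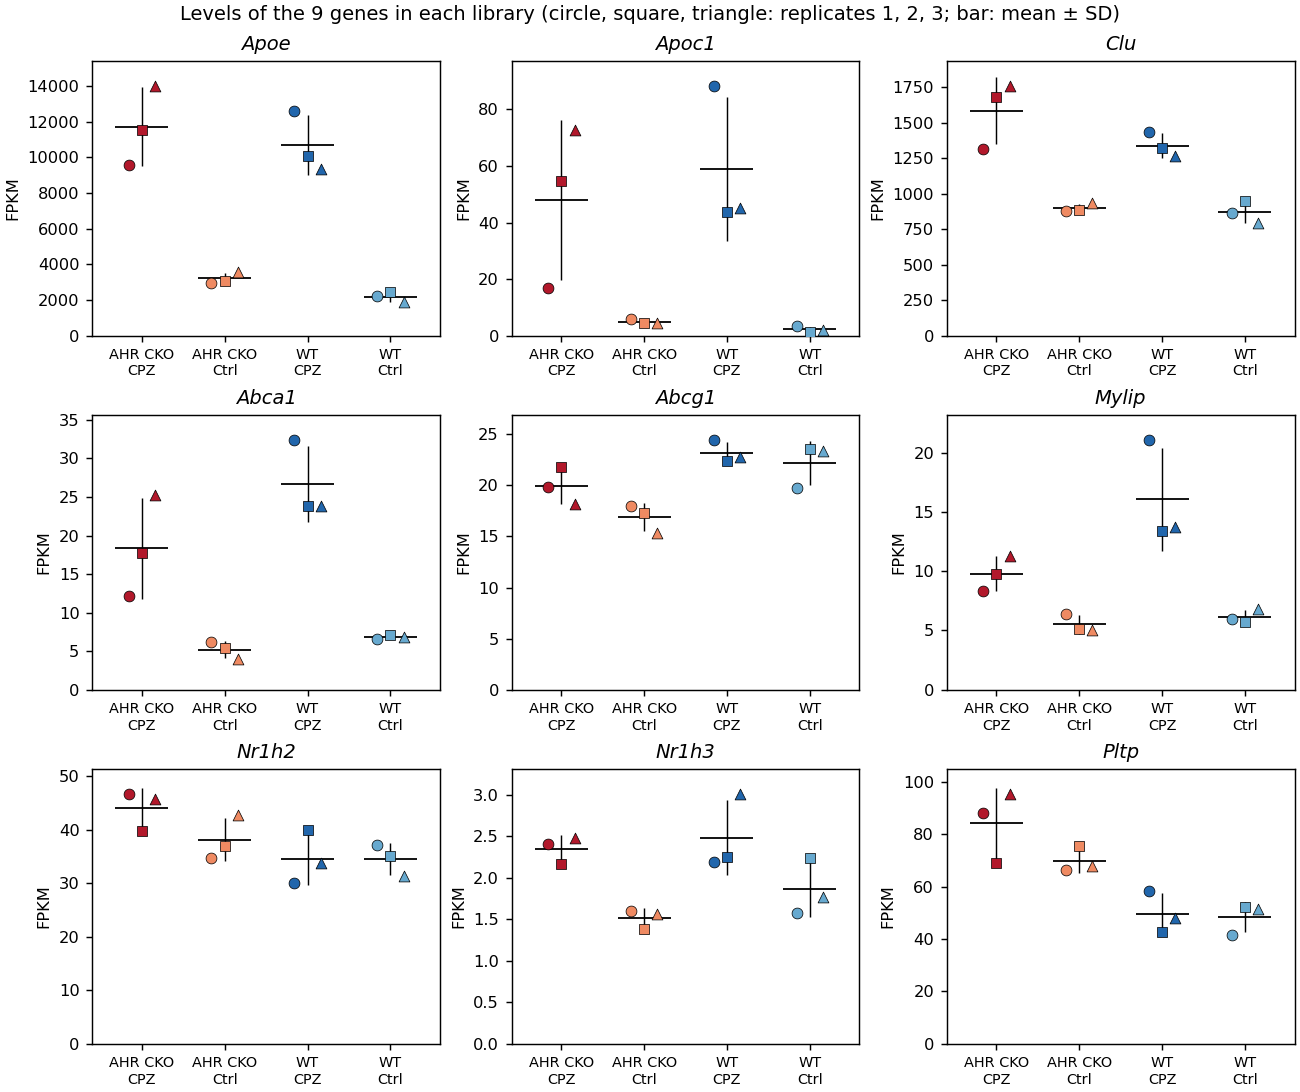
FPKM of each of the 9 genes (y axis, from 0) in the 3 libraries of each group (x axis, AHR CKO CPZ, AHR CKO Ctrl, WT CPZ, WT Ctrl), with a symbol for each replicate number and bars for mean ± SD. Apoe, Apoc1, Clu, Abca1 and Mylip stand higher in CPZ than in Ctrl in both genotypes, with no overlap, while Pltp stands higher in AHR CKO than in WT under both treatments.

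Apoe encodes the main apolipoprotein of brain lipoprotein particles, made by astrocytes and by activated microglia, and it lies at chr7:19696109-19699188 on the minus strand (GENCODE M21, GRCm38). It stood at 9599.8, 11556 and 14005 FPKM in AHR CKO CPZ replicates 1 to 3, against 2976, 3070.4 and 3585 FPKM in AHR CKO Ctrl. In WT it stood at 12590.1, 10105 and 9364 FPKM with CPZ, against 2247, 2437 and 1879.7 FPKM with Ctrl. Every CPZ library was far above every Ctrl library, and Apoe was the most abundant gene of the table in all 6 CPZ libraries, where it held 1.85% to 2.89% of total FPKM in AHR CKO and 2.05% to 2.82% in WT. In Ctrl libraries it was between the third and the fifth gene, with 0.648% to 0.712% of the total in AHR CKO and 0.417% to 0.516% in WT. The means differed 3.65-fold in AHR CKO (log2 change 1.86, SE 0.199, adjusted p = 9.79e-05 by limma) and 4.88-fold in WT (2.28, SE 0.199, adjusted p = 1.27e-05). In WT only 0.487% of tested genes had a larger log2 change.

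Apoc1 is the immediate neighbour of Apoe, 3448 bases away on the same strand (chr7:19689481-19692660), and encodes a small apolipoprotein known to inhibit lipoprotein lipase and lipoprotein uptake. Its level was 16.8, 54.5 and 72.6 FPKM in AHR CKO CPZ libraries, against 5.82, 4.38 and 4.51 FPKM in AHR CKO Ctrl. In WT it was 88.3, 43.7 and 45.1 FPKM with CPZ, against 3.33, 1.40 and 1.93 FPKM with Ctrl. The groups did not overlap in either genotype, but the CPZ libraries varied widely, with AHR CKO replicate 1 the lowest and WT replicate 1 the highest of the 6. The means differed 9.79-fold in AHR CKO (log2 change 2.83, SE 0.441, adjusted p = 0.00122 by limma) and 26.6-fold in WT (4.19, SE 0.441, adjusted p = 4.16e-05). Apoc1 ranked 6 by log2 change among all tested genes in WT and 25 in AHR CKO. The pseudocount of 1 FPKM makes these log2 changes smaller than the ratio of the means for a gene this low in Ctrl.

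Clu encodes clusterin, also called apolipoprotein J, a secreted chaperone carried on brain lipoprotein particles (chr14:65968483-65981547, plus strand). It stood at 1318, 1681 and 1759 FPKM in AHR CKO CPZ libraries, against 880.2, 888 and 935 FPKM in AHR CKO Ctrl. In WT it stood at 1439, 1319 and 1263 FPKM with CPZ, against 865, 947 and 795 FPKM with Ctrl. The groups did not overlap, and the means differed 1.76-fold in AHR CKO (log2 change 0.80, SE 0.131, adjusted p = 0.00170 by limma) and 1.54-fold in WT (0.63, SE 0.131, adjusted p = 0.00551). The ratio of Apoe to Clu, both per length, was 6.87 to 7.96 in AHR CKO CPZ, 3.38 to 3.83 in AHR CKO Ctrl, 7.41 to 8.75 in WT CPZ and 2.37 to 2.60 in WT Ctrl.

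Of the pair of exporters, only Abca1 passed the test under cuprizone. Abca1 loads cholesterol and phospholipid onto lipid-poor apolipoproteins (chr4:53030787-53159895, minus strand). It stood at 12.2, 17.7 and 25.3 FPKM in AHR CKO CPZ libraries, against 6.12, 5.42 and 3.98 FPKM in AHR CKO Ctrl, and at 32.4, 23.9 and 23.8 FPKM in WT CPZ, against 6.63, 7.03 and 6.87 FPKM in WT Ctrl. The CPZ libraries lay above the Ctrl libraries in both genotypes, with means 3.55-fold apart in AHR CKO (log2 change 1.61, SE 0.215, adjusted p = 0.000414 by limma) and 3.90-fold apart in WT (1.81, SE 0.215, adjusted p = 0.000104). Abcg1, which passes cholesterol on to particles already carrying lipid (chr17:31057675-31117988, plus strand), stood at 19.9, 21.8 and 18.2 FPKM in AHR CKO CPZ, against 18.0, 17.3 and 15.4 FPKM in AHR CKO Ctrl. In WT it stood at 24.4, 22.4 and 22.8 FPKM with CPZ, against 19.7, 23.5 and 23.3 FPKM with Ctrl. The groups overlapped in WT (log2 change 0.06, 95% interval -0.15 to 0.28, adjusted p = 0.721 by limma), and did not in AHR CKO, where the change missed the threshold (0.23, interval 0.01 to 0.44, adjusted p = 0.180). The level of Abca1 was below that of Abcg1 in all 6 Ctrl libraries, at a ratio of 0.259 to 0.340 in AHR CKO and 0.294 to 0.336 in WT. With CPZ the ratio was 0.613, 0.810 and 1.39 in AHR CKO and 1.33, 1.07 and 1.05 in WT.

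The liver X receptors themselves did not pass the test with cuprizone. Nr1h2, the widely expressed LXR beta (chr7:44549616-44553951, minus strand), stood at 46.7, 39.8 and 45.8 FPKM in AHR CKO CPZ, against 34.8, 37.0 and 42.7 FPKM in AHR CKO Ctrl. In WT it stood at 30.0, 39.9 and 33.9 FPKM with CPZ, against 37.2, 35.1 and 31.3 FPKM with Ctrl. The groups overlapped in both genotypes, with log2 changes of 0.21 in AHR CKO (95% interval -0.05 to 0.46) and -0.0041 in WT (interval -0.26 to 0.25). Nr1h3, LXR alpha, which is prominent in macrophages and liver (chr2:91184061-91202834, minus strand), was far lower, at 2.40, 2.16 and 2.48 FPKM in AHR CKO CPZ, against 1.60, 1.38 and 1.57 FPKM in AHR CKO Ctrl. In WT it was 2.20, 2.25 and 3.01 FPKM with CPZ, against 1.58, 2.24 and 1.77 FPKM with Ctrl. The AHR CKO groups did not overlap and the change narrowly missed the threshold (log2 change 0.41, interval 0.13 to 0.70, adjusted p = 0.0656 by limma), while in WT the groups overlapped (0.28, interval -0.00031 to 0.56, adjusted p = 0.169). Per length, Nr1h2 was 11.3 to 27.2 times as abundant as Nr1h3 over the 12 libraries.

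Mylip encodes the ubiquitin ligase, also called IDOL, that marks lipoprotein receptors for destruction (chr13:45389742-45412022, plus strand). It stood at 8.33, 9.72 and 11.3 FPKM in AHR CKO CPZ, against 6.42, 5.09 and 5.01 FPKM in AHR CKO Ctrl, and at 21.0, 13.4 and 13.7 FPKM in WT CPZ, against 5.95, 5.72 and 6.79 FPKM in WT Ctrl. No CPZ library overlapped the Ctrl libraries of its genotype, with means 1.77-fold apart in AHR CKO (log2 change 0.73, SE 0.165, adjusted p = 0.0146 by limma) and 2.61-fold apart in WT (1.23, SE 0.165, adjusted p = 0.000238). The call in AHR CKO was lost without AHR CKO Ctrl replicate 2 or AHR CKO CPZ replicate 3, with adjusted p up to 0.0630 and log2 changes of 0.63 to 0.82 over all single libraries left out.

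Among the receptors whose protein Mylip is known to mark are Vldlr and Lrp8. The mRNA of Vldlr, which binds apolipoprotein E and reelin, fell with cuprizone in WT (log2 change -0.48, adjusted p = 0.0448 by limma), with 11.5 ± 1.96 FPKM in CPZ and 16.3 ± 1.33 FPKM in Ctrl (SD, n = 3 each), a call lost without any of 8 single libraries (all 3 of WT Ctrl, WT CPZ replicates 2 and 3, and 3 of AHR CKO; adjusted p up to 0.138). The Vldlr call was also lost without a filter (0.0526), with rescaling to a common total (TPM, 0.0886), with the replicate block (0.0774) and with the compared groups alone (0.0531). Lrp8, the apolipoprotein E receptor 2, averaged 9.69 ± 1.23 FPKM in AHR CKO CPZ, 11.4 ± 0.537 in AHR CKO Ctrl, 13.1 ± 1.12 in WT CPZ and 13.1 ± 2.13 in WT Ctrl, and did not pass with cuprizone. These are mRNA levels, and receptor protein was not measured here.

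Pltp, which moves phospholipid between lipoprotein particles (chr2:164839518-164857711, minus strand), did not pass the test with cuprizone and differed by genotype. It stood at 88.3, 69.2 and 95.3 FPKM in AHR CKO CPZ, 66.3, 75.5 and 68.1 FPKM in AHR CKO Ctrl, 58.4, 42.6 and 47.9 FPKM in WT CPZ and 41.7, 52.1 and 51.6 FPKM in WT Ctrl. Every AHR CKO library lay above every WT library of the same treatment, and even the lowest AHR CKO library (66.3 FPKM) lay above the highest WT library (58.4 FPKM). The cuprizone change did not pass in AHR CKO (log2 change 0.25, 95% interval -0.05 to 0.56, adjusted p = 0.305 by limma) or in WT (0.03, interval -0.28 to 0.34, adjusted p = 0.919).

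**Figure D3:**
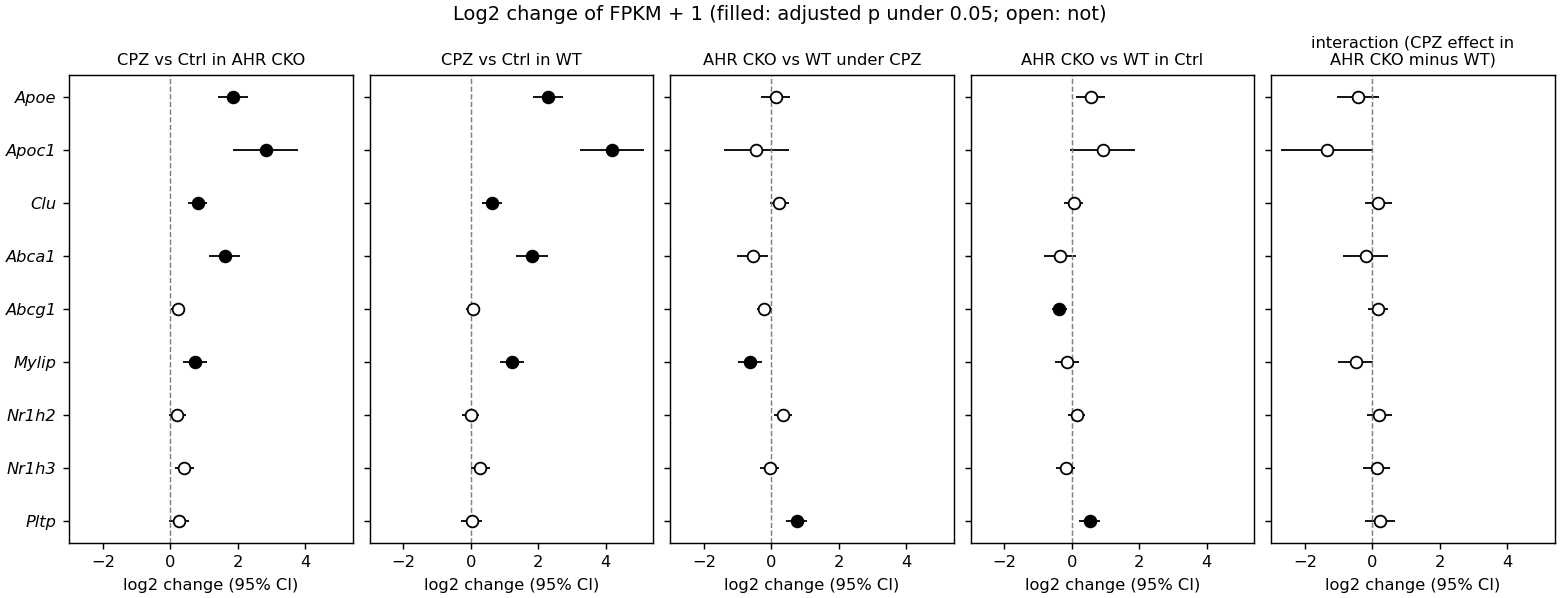
Log2 change of FPKM + 1 (x axis, with 95% interval) for each of the 9 genes (y axis) in the 5 comparisons, with filled points for adjusted p under 0.05. Filled points stand for the same 5 genes in both cuprizone comparisons, for Pltp in both genotype comparisons, for Mylip under CPZ and for Abcg1 in Ctrl, with none in the interaction.

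Under cuprizone, 2 of the 9 genes differed between the genotypes: Pltp was higher and Mylip lower in AHR CKO than in WT. In this comparison 9.14% of all tested genes were called higher and 10.8% lower, so that 1 of 9 in each direction is near the background. The libraries of the genotypes did not overlap for 3 of the 9 genes (Pltp, Mylip and Abcg1), near the 38.8% of all tested genes. Pltp averaged 84.3 ± 13.5 FPKM in AHR CKO CPZ and 49.6 ± 8.01 FPKM in WT CPZ (SD, n = 3 each), a 1.70-fold difference (log2 0.75, SE 0.142, adjusted p = 0.00797 by limma) that held with each single library left out. Mylip averaged 9.78 ± 1.48 FPKM in AHR CKO CPZ and 16.04 ± 4.34 FPKM in WT CPZ, a ratio of 0.609 (log2 -0.64, SE 0.165, adjusted p = 0.0214), with no overlap. The Mylip call was lost without WT CPZ replicate 1 or AHR CKO CPZ replicate 1 or 2 (adjusted p up to 0.0920). Abca1 was 18.4 ± 6.56 FPKM in AHR CKO CPZ and 26.7 ± 4.92 FPKM in WT CPZ, overlapped and did not pass (log2 -0.56, 95% interval -1.03 to -0.09, adjusted p = 0.0833). With single libraries left out, the Abca1 difference ran from -0.81 without AHR CKO CPZ replicate 3, where it passed (adjusted p = 0.0152), to -0.31 without AHR CKO CPZ replicate 1 (adjusted p = 0.317). Nr1h2 was 44.1 ± 3.76 FPKM in AHR CKO CPZ and 34.6 ± 4.97 FPKM in WT CPZ and did not pass (log2 0.35, interval 0.09 to 0.60, adjusted p = 0.0560). With single libraries left out, the Nr1h2 difference ran from 0.25 without WT CPZ replicate 1 (adjusted p = 0.184) to 0.45 without WT CPZ replicate 2 (adjusted p = 0.0248), and it also passed without AHR CKO Ctrl replicate 3. The intervals of Apoe (-0.31 to 0.56), Apoc1 (-1.40 to 0.51), Clu (-0.05 to 0.52), Abcg1 (-0.42 to 0.01) and Nr1h3 (-0.33 to 0.23) all included 0 on the log2 scale.

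Beside Mylip stand the markers of microglia and astrocytes. Of 6 microglial markers 2, and of 6 astrocyte markers 1, were called lower in AHR CKO CPZ than in WT CPZ, as were 10.8% of all tested genes. The astrocyte sums overlapped (1244 to 2072 FPKM in AHR CKO CPZ and 1806 to 2297 FPKM in WT CPZ). The microglial sum without Cx3cr1 also overlapped, at 219 to 378 FPKM in AHR CKO CPZ and 370 to 558 FPKM in WT CPZ. AHR CKO CPZ replicate 1 was the lowest CPZ library for Apoc1, Abca1 and Mylip and for the microglial and astrocyte sums, and WT CPZ replicate 1 was the highest for Apoc1, Abca1, Mylip and both sums. Their part in the result was not tested. Beside Pltp stand the choroid plexus markers, of which none was called in any comparison, at 1009 to 3737 FPKM in AHR CKO CPZ and 57.7 to 2989 FPKM in WT CPZ. In WT CPZ the highest sum (2989 FPKM) and the highest Pltp (58.4 FPKM) were both in replicate 1. In AHR CKO CPZ the highest sum was in replicate 1 (3737 FPKM) and the highest Pltp in replicate 3 (95.3 FPKM). In both Ctrl groups the highest sum and the highest Pltp were in replicate 2 (3583 and 75.5 FPKM in AHR CKO Ctrl, 155 and 52.1 FPKM in WT Ctrl). That part was not tested either. Pltp also shares 495 of its 2562 exonic bases (19.3%) with Ctsa, a lysosomal protease gene on the opposite strand. Whether counting used strand is not stated in the labels, so reads in the shared bases cannot be told apart. Ctsa was 62.4 ± 5.49 FPKM in AHR CKO CPZ and 74.6 ± 15.4 FPKM in WT CPZ and did not pass (log2 -0.24, adjusted p = 0.187 by limma).

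In Ctrl tissue, Pltp was higher and Abcg1 lower in AHR CKO than in WT, both just inside the threshold. All tested genes were called higher in 1.42% and lower in 4.76%. Pltp averaged 69.95 ± 4.88 FPKM in AHR CKO Ctrl and 48.5 ± 5.87 FPKM in WT Ctrl (SD, n = 3 each), a 1.44-fold difference (log2 0.53, SE 0.142, adjusted p = 0.0492 by limma). Abcg1 averaged 16.9 ± 1.37 FPKM in AHR CKO Ctrl and 22.2 ± 2.15 FPKM in WT Ctrl, a ratio of 0.762 (log2 -0.37, SE 0.0981, adjusted p = 0.0472). Both pairs of groups stood clear of each other, but the Abcg1 call was lost without any of 10 of the 12 libraries (all but AHR CKO CPZ replicates 1 and 3; adjusted p up to 0.174). That of Pltp was lost without any of 8 (all 6 Ctrl libraries, WT CPZ replicate 3 and AHR CKO CPZ replicate 2; adjusted p up to 0.164). Apoe (log2 0.56, adjusted p = 0.102), Apoc1 (0.91, adjusted p = 0.202) and Abca1 (-0.36, adjusted p = 0.295) also had groups that did not overlap and did not pass. In all, 5 of the 9 did not overlap here, as did 35.4% of all tested genes. The choroid plexus sums did not overlap either, at 415 to 3583 FPKM in AHR CKO Ctrl and 43.3 to 155 FPKM in WT Ctrl (median log2 difference of the 6 markers 1.85, none called), and their part in the Pltp difference was not tested.

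Without the 3 AHR CKO libraries of low Cx3cr1, 4 of the 9 genes were called higher with cuprizone in AHR CKO, where 1 Ctrl library was left and was assumed to vary like the others. In that fit 435 of all tested genes were called higher and 46 lower. Log2 changes were then 2.05 for Apoe (adjusted p = 0.00475 by limma), 3.57 for Apoc1 (0.00432), 0.95 for Clu (0.01565) and 1.79 for Abca1 (0.00465), and Mylip no longer passed (0.91, adjusted p = 0.105). None of the 9 was called between the genotypes, where 606 of all genes were called under cuprizone and 1 in Ctrl, so the count in Ctrl says nothing of these 9. Under cuprizone Pltp then had a log2 difference of 0.71 (adjusted p = 0.0579), Mylip of -0.54 (0.118), Abca1 of -0.31 (0.300) and Nr1h2 of 0.31 (0.195), and in Ctrl Pltp had 0.64 (0.234) and Abcg1 -0.34 (0.294).

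The change with cuprizone was not shown to differ between AHR CKO and WT for any of the 9 genes. In the test of the difference itself, the genotype by cuprizone interaction, none of the 9 passed, with 5 of all tested genes called (0.0363%) and 1316 (9.56%) at an unadjusted p under 0.05. Apoc1 had the most negative estimate, with a log2 change 1.36 smaller in AHR CKO than in WT (interaction -1.36, 95% interval -2.71 to 0.0006, adjusted p = 0.521 by limma), followed by Mylip (-0.50, interval -1.01 to 0.01, adjusted p = 0.528) and Apoe (-0.43, interval -1.04 to 0.18, adjusted p = 0.697). The other 6 estimates ran from -0.20 for Abca1 to 0.23 for Pltp. With single libraries left out, the Apoc1 estimate ran from -1.77 without AHR CKO CPZ replicate 3 to -0.74 without AHR CKO CPZ replicate 1 (adjusted p = 0.653), the library with the lowest Apoc1 under CPZ. The Mylip estimate ran from -0.61 to -0.30. Without the 3 libraries of low Cx3cr1, the estimates were -0.62 for Apoc1 (adjusted p = 0.865), -0.31 for Mylip (adjusted p = 0.873) and -0.23 for Apoe (adjusted p = 0.913).

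A further 45 genes of the same transport pathway were listed by role, of which 39 were in the table and 36 were tested. With cuprizone, 5 were called higher and 5 lower in AHR CKO (13.9% each way), where 7.22% of all tested genes were called higher and 2.98% lower. In WT, 8 were called higher and 8 lower (22.2% each way), where the shares of all tested genes were 9.08% and 7.81%. The list's median log2 change was -0.06 in AHR CKO and -0.01 in WT, beside -0.01 and -0.04 for all tested genes. The 45 genes, too, were listed with earlier results of these data known.

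Among 3 tested lipoprotein genes, Lpl, the lipase that frees fatty acids from lipoproteins, rose in both genotypes. It averaged 34.0 ± 11.3 FPKM in AHR CKO CPZ, 9.95 ± 0.824 in AHR CKO Ctrl, 45.1 ± 8.65 in WT CPZ and 8.29 ± 6.13 in WT Ctrl (SD, n = 3 each), with log2 changes of 1.62 in AHR CKO (adjusted p = 0.0131 by limma; up to 0.0597 without AHR CKO Ctrl replicate 2 or AHR CKO CPZ replicate 3) and 2.49 in WT (adjusted p = 0.000440). Lcat, which esterifies cholesterol on particles, rose by 0.37 in WT (adjusted p = 0.0314; up to 0.128 without WT Ctrl or WT CPZ replicate 1 or 3, and 0.0619 with the compared groups alone). Apod, a lipocalin of glia, did not pass in any comparison.

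Of 11 tested lipoprotein receptors, 1, Trem2, was called higher with cuprizone in both genotypes. That is 9.09%, near the 7.22% of all tested genes in AHR CKO and 9.08% in WT. Called lower were 1 in AHR CKO (9.09%) and 2 in WT (18.2%), beside 2.98% and 7.81% of all tested genes. Trem2 is a microglial receptor for lipids and apolipoproteins. It averaged 110 ± 20.3 FPKM in AHR CKO CPZ, 20.9 ± 2.79 in AHR CKO Ctrl, 141 ± 23.8 in WT CPZ and 18.9 ± 1.28 in WT Ctrl (SD, n = 3 each), with log2 changes of 2.33 in AHR CKO (adjusted p = 5.50e-06 by limma) and 2.82 in WT (adjusted p = 1.42e-06). Vldlr was called lower in WT. Sorl1, a sorting receptor that also binds apolipoprotein E, differed by genotype instead: 7.25 ± 1.84 FPKM in AHR CKO CPZ and 16.5 ± 2.72 FPKM in WT CPZ, a log2 difference of -1.10 (adjusted p = 0.00573) that held with each library left out. In Ctrl, Sorl1 was 9.97 ± 2.17 FPKM in AHR CKO and 16.8 ± 1.39 FPKM in WT (log2 -0.71, adjusted p = 0.0460; up to 0.173 with a library left out). Under cuprizone, Lrp8 was lower by 0.40 in AHR CKO than in WT (log2 -0.40, adjusted p = 0.0378; up to 0.1204 with a library left out). The Lrp8 call was also lost with the replicate block (0.0690), the compared groups alone (0.0659) and quantile normalization (0.0529).

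Among 7 sterol exporters and lysosomal genes, 1 was called higher with cuprizone, 1 lower and 5 neither in AHR CKO, and 2 higher, 2 lower and 3 neither in WT. That is 14.3% each way in AHR CKO, where 7.22% of all tested genes were higher and 2.98% lower. In WT it is 28.6% each way, beside 9.08% and 7.81%. Npc2, the soluble carrier of cholesterol in the lysosome, rose by 0.77 in AHR CKO (adjusted p = 0.00181 by limma) and 0.96 in WT (adjusted p = 0.000211). Its membrane partner Npc1 fell in WT (log2 -0.70, adjusted p = 0.00376), where it averaged 20.9 ± 1.29 FPKM with CPZ and 35.2 ± 6.81 FPKM with Ctrl. Abca2, a lipid transporter abundant in oligodendrocytes, averaged 37.0 ± 1.15 FPKM in AHR CKO CPZ, 62.4 ± 2.27 in AHR CKO Ctrl, 33.2 ± 2.16 in WT CPZ and 86.9 ± 17.1 in WT Ctrl (log2 -0.74 in AHR CKO, adjusted p = 0.00165; -1.35 in WT, adjusted p = 1.44e-05). Oligodendrocyte markers were lower in the same libraries, and their part in these falls was not tested. Lipa, the lysosomal acid lipase, was lower in AHR CKO CPZ than in WT CPZ (log2 -0.51, adjusted p = 0.0310; up to 0.128 with a library left out, 0.0608 with the replicate block and 0.0670 with the compared groups alone).

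Of 4 oxysterol enzymes, Ch25h, which makes an oxysterol from cholesterol, rose in both genotypes, to 7.07 ± 2.70 FPKM in AHR CKO CPZ, against 0.685 ± 0.544 FPKM in AHR CKO Ctrl, and to 8.15 ± 3.47 FPKM in WT CPZ, against 0.317 ± 0.203 FPKM in WT Ctrl (SD, n = 3 each; log2 changes 2.26 and 2.74, adjusted p = 0.000435 in AHR CKO and 6.30e-05 in WT by limma). Cyp27a1, a mitochondrial sterol hydroxylase, fell in WT (log2 -0.87, adjusted p = 0.00538). Cyp46a1, the neuronal enzyme through which most brain cholesterol leaves, did not pass in any comparison.

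Other liver X receptor targets were called in both directions. Of 11 tested partners and targets, 1 rose (9.09%) and 3 fell (27.3%) with cuprizone in AHR CKO, where 7.22% and 2.98% of all tested genes did. In WT, 2 rose (18.2%) and 3 fell (27.3%), beside 9.08% and 7.81% of all tested genes. Srebf1, the regulator of fatty acid synthesis, averaged 44.7 ± 4.21 FPKM in AHR CKO CPZ, 21.2 ± 2.23 in AHR CKO Ctrl, 38.9 ± 1.65 in WT CPZ and 22.8 ± 3.35 in WT Ctrl (log2 changes 1.04 in AHR CKO, adjusted p = 0.000122 by limma, and 0.75 in WT, adjusted p = 0.000655). The desaturase Scd1 averaged 58.8 ± 4.83 FPKM in AHR CKO CPZ, 113.8 ± 10.1 in AHR CKO Ctrl, 54.9 ± 8.01 in WT CPZ and 167 ± 32.5 in WT Ctrl (-0.94 in AHR CKO, adjusted p = 0.00113; -1.58 in WT, adjusted p = 1.71e-05). The synthase Fasn fell as well in both genotypes (-0.38 in AHR CKO, adjusted p = 0.00697; -0.39 in WT, adjusted p = 0.00389). So did Scd2 (-0.57 in AHR CKO, adjusted p = 0.0153, up to 0.0775 with a library left out; -0.73 in WT, adjusted p = 0.00183). Mertk, a receptor for engulfing dead cells and myelin, was 9.68 ± 2.83 FPKM in AHR CKO CPZ and 17.2 ± 2.45 FPKM in WT CPZ, a log2 difference of -0.80 (adjusted p = 0.0119) that held with each library left out and was lost with the compared groups alone (adjusted p = 0.0532).

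Between the genotypes, 1 of the 36 listed genes was called higher and 5 lower in AHR CKO than in WT under cuprizone, where 9.14% of all tested genes were called higher and 10.8% lower. With TPM these counts were 1 and 9, where the median log2 difference of all tested genes moved to -0.11 and their count is not given here. With the replicate block they were 1 and 2, where 786 of all tested genes were called higher and 1020 lower. With the compared groups alone they were 1 and 1, where 459 of all tested genes were called higher and 611 lower. In Ctrl, 1 was called higher and 4 lower, beside 1.42% and 4.76% of all tested genes. Without a filter 1 was called. None was called under the replicate block, where 51 of all tested genes were, or with the compared groups alone, where 127 were. In Ctrl the higher one was Lcat (log2 0.40, adjusted p = 0.0472 by limma), and beside Sorl1 the lower ones were Npc1 (-0.57, adjusted p = 0.0395), Abca2 (-0.45, adjusted p = 0.0476) and Scd2 (-0.54, adjusted p = 0.0387). Each of these 5 calls in Ctrl was lost with at least 6 of the 12 libraries left out singly. Rxra, the retinoid partner of the liver X receptors, was lower by 0.29 under cuprizone (log2 -0.29, adjusted p = 0.0357; up to 0.0958 with a library left out, 0.0619 with the replicate block, 0.0753 with the compared groups alone and 0.0524 with quantile normalization). None of the 36 passed in the interaction. Without the 3 AHR CKO libraries of low Cx3cr1, 1 AHR CKO Ctrl library was left. The log2 changes with cuprizone in AHR CKO were then 2.55 for Trem2, 2.58 for Ch25h and 1.02 for Srebf1. The AHR CKO calls of Lpl (adjusted p = 0.11999), Abca2 (0.134), Npc2 (0.0679), Scd1 (0.0561), Scd2 (0.0791) and Fasn (0.187) were lost. Between the genotypes under cuprizone, the log2 differences were then -0.91 for Sorl1 and -0.56 for Mertk. Lrp8 (log2 -0.38), Lipa (-0.38) and Rxra (-0.30) were no longer called, and none was called in Ctrl.

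**Figure D4:**
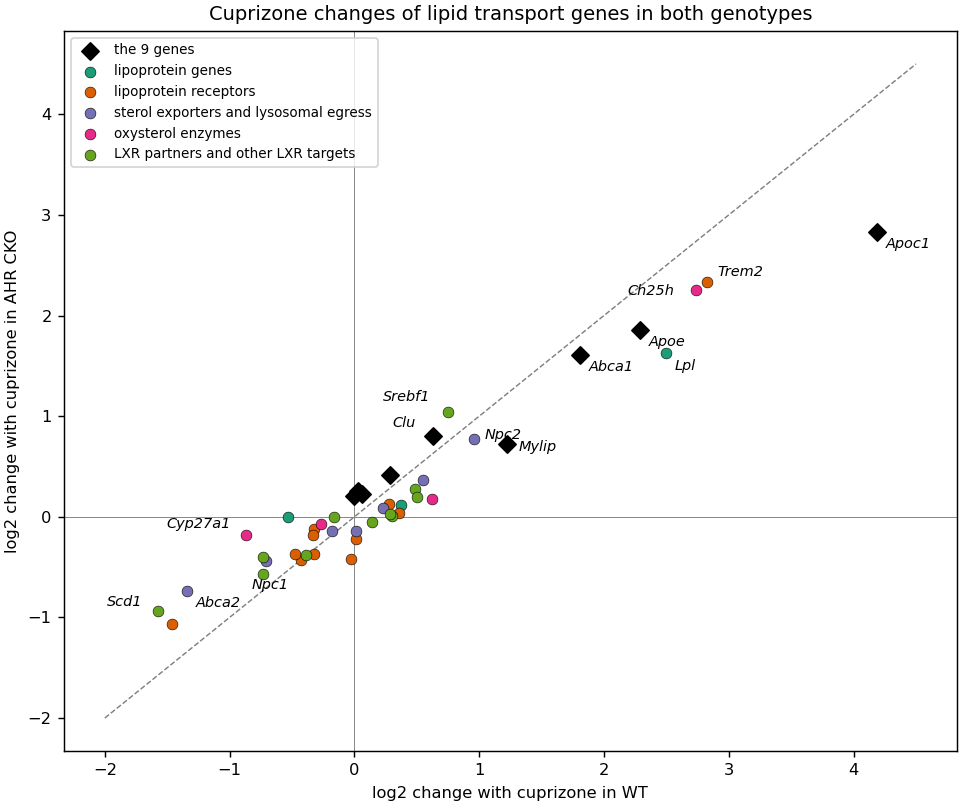
Log2 change with cuprizone in WT (x axis) against that in AHR CKO (y axis) for the 9 genes (black diamonds) and the 36 further tested genes of the pathway, coloured by list, with the dashed line of equal change. The axes share no libraries; Apoc1, Apoe, Abca1, Trem2, Ch25h and Lpl stand high on both, and Scd1 and Abca2 low on both.

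Likeness to other genes is given as a description, with no test. Over all 12 libraries and among 9920 genes with a mean of at least 5 FPKM, by Pearson's r of log2(FPKM + 1), the genes most like Apoe were Capg (0.995), Tmem176b (0.993) and Hrsp12 (0.988). For Apoc1 they were Tgfb1 (0.989), Hvcn1 (0.986) and Gm2a (0.978), and for Clu they were Chil1 (0.992), Gnai2 (0.981) and Plau (0.980). Abca1 was nearest to Msn (0.993) and C3ar1 (0.993), and Mylip to Itgam (0.980) and Man2b1 (0.970). The 12 points are 3 libraries of each of 4 groups, and libraries of a group share their treatment and genotype.

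For the 4 genes that did not pass with cuprizone, the neighbours were others. Abcg1 was nearest to Lman1 (0.892), Tmem167b (0.889) and Naa50 (0.888), and Nr1h3 to Nagpa (0.887), Cyp2j9 (0.884) and Cyb5r1 (0.883). Nr1h2 was nearest to Zyx (0.969), Lmna (0.960) and 2010320M18Rik (0.959), and Pltp to Fuz (0.944), Htra2 (0.926) and Clybl (0.923).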

How the data were processed

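Total RNA of mouse corpus callosum was sequenced in 12 libraries, placed in 4 groups of 3 by the genotype and treatment that the labels give. The authors deposited 1 table of FPKM values, per the file headers. The submitters' processing notes name GRCm38 and mm10 as the build. The aligner, quantifier, annotation, strand setting and any filter could not be learned from the sources used. No gene of the whole deposited table was at 0 FPKM in WT Ctrl replicates 1 to 3 or in WT CPZ replicates 1 and 3. Zeros numbered 94 in WT CPZ replicate 2, and ranged between 52 and 80 per library in AHR CKO. The part of this uneven spread in the comparisons between the genotypes was not tested. FPKM holds no counts, so no count test was run. Fragments per library were guessed from 1244 genes with a single transcript, of which 9 to 31 per library fell in the preset range of low values. The median of these was taken as the step of 1 fragment. Of the low values checked, 71.9% to 89.7% lay near a whole multiple of that step. The check covered only values near the step, so it cannot show whether the depth is right. An abundant gene such as Apoe lowers all other values of its library slightly.

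A gene was tested if it reached 1 FPKM in 3 or more of the 12 libraries (13759 of 15584). Values were transformed as log2(FPKM + 1), which understates the change of low genes, and fitted with limma 3.58.1 in R 4.3.3 (4 group terms, all 12 libraries, 1 shared estimate of the spread with a trend). P-values are two-sided and were adjusted by the Benjamini-Hochberg method over all tested genes within each of 5 comparisons, with a threshold of 0.05. Folds are ratios of mean FPKM, and intervals are 95%. The fit was tested on simulated data. In 25 rows the symbol had become a date, and these are not named.

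The 9 genes and all lists were chosen with earlier results of these data known. All 9 genes are reported. From each list, up to 3 genes with the smallest adjusted p past the threshold in a comparison are named, or the most abundant where none passed. For each of the 9, the 3 genes with the highest Pearson r among genes with mean FPKM of at least 5 are named. A few genes that these rules pick are not reported here. Gene positions come from GENCODE M21 and promoters from RefSeq (GRCm38.p6); longer direct repeats were searched there before the half-site and are not reported. Alternatives were another pseudocount, other filters on low values, 3 other scalings, a replicate block, a fit to the compared groups alone, each library left out, and, chosen after seeing the data, the 3 AHR CKO libraries with Cx3cr1 under 2 FPKM left out.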

Additional observations from a re-analysis of the deposited data

How the results depend on the processing

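The calls with cuprizone were the stable ones. In WT, 5 of the 9 genes were called under every alternative run, and in AHR CKO 4 to 5, with 4 to 5 over single libraries left out. Between the genotypes the calls were less stable. Under cuprizone, 2 genes were called, but 1 in a fit to the compared groups alone, 0 without the 3 AHR CKO libraries of low Cx3cr1, and 1 to 3 over single libraries left out. In Ctrl, 2 genes were called, but 1 with a pseudocount of 0.1, with rescaling to a common total (TPM) or with median-of-ratios scaling, and 0 without a filter, with quantile normalization, with the replicate block, with the compared groups alone or without the 3 libraries, and 0 to 2 over single libraries left out. The cause of these changes was not tested, beyond the smaller number of libraries where some were left out.

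Counts over all tested genes moved as well. With cuprizone in AHR CKO, 1403 genes were called, but 901 with a mean of at least 5 FPKM and 481 without the 3 libraries. Between the genotypes under cuprizone, 2747 were called, but 1806 with the replicate block, 1070 with the compared groups alone and 606 without the 3 libraries. In Ctrl, 851 were called, but 51 with the replicate block, 127 with the compared groups alone and 1 without the 3 libraries. In the interaction, 5 were called, but 1 without a filter, 0 with the replicate block and 0 without the 3 libraries. Over single libraries left out, the counts ran from 1594 to 2439 with cuprizone in WT, 840 to 1553 in AHR CKO, 777 to 3305 between the genotypes under cuprizone, 4 to 1428 in Ctrl and 0 to 103 in the interaction.

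None of the log2 changes that turned their direction was called. For Nr1h2 with cuprizone in WT, -0.0041, they were 0.00026 with TPM, 0.0080 with median-of-ratios scaling and 0.055 with quantile normalization. Under cuprizone, Apoe was -0.0031 with TPM, Clu -0.14 with quantile normalization, and Apoc1 0.17 without the 3 libraries. In Ctrl, Clu was -0.0036 with TPM and -0.060 with quantile normalization, and its interaction was -0.079 with quantile normalization. Over single libraries left out, the changes with cuprizone in WT ran from -0.016 to 0.11 for Abcg1, -0.11 to 0.090 for Nr1h2 and -0.092 to 0.13 for Pltp. Between the genotypes under cuprizone they ran from -0.0093 to 0.26 for Apoe, -0.85 to 0.17 for Apoc1 and -0.11 to 0.05 for Nr1h3, in Ctrl from -0.0067 to 0.12 for Clu, and in the interaction from -0.44 to 0.053 for Abca1. TPM lowered the median of all genes between the genotypes under cuprizone to -0.11, and Abcg1 was called lower there (log2 -0.33, adjusted p = 0.0477 by limma).

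The replicate numbers showed no common pairing across groups: over 18 pairs of same-numbered libraries, the deviations from the group means correlated between -0.343 and 0.250, and 3 pairs were over 0.1. Whether same-numbered libraries share a batch is not said in the labels, and 3 libraries per group are too few to tell. With the replicate block, Pltp and Abcg1 were no longer called in Ctrl. The filter at a mean of 5 FPKM removed Nr1h3, and the interaction has no fit to the compared groups alone. Low levels limit Nr1h3 and, in Ctrl, Apoc1 most.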
